A study of Homo sapiens with 2 samples.

Results

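The 10 genes described here, ALDH1A1, ALDH1A2, ALDH1A3, ALDH1B1, ALDH2, ALDH3A1, ALDH3A2, ALDH3B1, ALDH7A1 and ALDH9A1, encode aldehyde dehydrogenases. They were chosen by name, from 20163 protein-coding genes, and every CpG dinucleotide within 2 kb of an annotated transcription start site (TSS) or inside the gene body was taken, which gave 10518 of the 28217448 CpG dinucleotides listed. Of these, 9435 had more than 5 reads in both lines and were used. The methylomes came from whole-genome bisulfite sequencing of 2 human acute myeloid leukemia (AML) cell lines, each represented by 1 library: OCI-AML3, labelled DNMT3A mutant, and OCI-AML5, labelled DNMT3A wild-type and also called AML5. Both were cultured in DMEM with serum and neither was treated. DNMT3A is a DNA methyltransferase that places new methyl groups on CpG dinucleotides, and the study set the lines side by side to find promoters with less methylation in the mutant line. The lines came from different patients, so the DNMT3A mutation cannot be told apart from any other difference between them, and without replicate libraries no value below has a spread between cultures. Methylation counts hold no expression data, so neither the myeloid cell type nor the mutation could be checked, and no mRNA level is given for any gene.

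Aldehyde dehydrogenases oxidise aldehydes to carboxylic acids with NAD(P)+ and so clear reactive aldehydes that arise from alcohol, lipids, amino acids and vitamin A. The ALDH1A enzymes turn retinaldehyde into retinoic acid, a signal that drives myeloid differentiation. ALDH2 oxidises acetaldehyde in mitochondria. High aldehyde dehydrogenase activity is a common flow cytometry marker of hematopoietic stem and progenitor cells. At many genes a CpG-dense start is unmethylated in normal tissue, while the CpG dinucleotides of the gene body are mostly methylated.

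Within 2 kb of the most upstream TSS, mean methylation was lower in OCI-AML3 by over 20 percentage points at 2 of the 10 genes. The same held for 8.61% of protein-coding genes. The 2 genes were ALDH2 and ALDH7A1, the latter an enzyme of lysine breakdown. Close to the start both had low levels in OCI-AML3, 16.7% and 12.1% over the 500 bp on either side. OCI-AML5 had higher levels there, 76.5% and 61.9%. Over that shorter span, which was added after the data were seen, ALDH3A1 also passed 20 points, at 46.8% and 70.8%. ALDH1A2 and ALDH1A3 held neighbouring stretches that went in opposite directions. ALDH1A1 had more methylation in OCI-AML3 over most of its length, whereas the average gene had less. ALDH1B1, ALDH3A2, ALDH3B1 and ALDH9A1 were nearly unmethylated at the start in both lines.

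Sequences just upstream of the most upstream start are printed for ALDH7A1, with a large promoter difference, and ALDH3A2, with low means in both lines. Both were read from GRCh37 on the strand of the gene, 5′ to 3′, at chr5:125931055-125931354 (minus strand) and chr17:19551249-19551448 (plus strand). They lie outside every annotated exon. Capitals mark the CpG dinucleotides.
ALDH7A1: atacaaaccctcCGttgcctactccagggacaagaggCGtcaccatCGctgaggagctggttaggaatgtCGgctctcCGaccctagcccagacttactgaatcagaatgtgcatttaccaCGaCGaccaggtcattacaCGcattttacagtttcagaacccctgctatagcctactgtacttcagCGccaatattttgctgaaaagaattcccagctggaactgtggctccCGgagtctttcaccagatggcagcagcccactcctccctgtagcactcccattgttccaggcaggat
ALDH3A2: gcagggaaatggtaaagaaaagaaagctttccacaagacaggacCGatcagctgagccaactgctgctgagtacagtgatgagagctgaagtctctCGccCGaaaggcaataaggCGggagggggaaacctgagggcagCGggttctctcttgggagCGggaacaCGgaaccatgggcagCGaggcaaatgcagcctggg

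The ALDH7A1 sequence has 10 CpG dinucleotides in 300 bp. Their methylation level, the percentage of calls at a CpG that were methylated, averaged 28.2% in OCI-AML3 and 82.9% in OCI-AML5. Of these, 8 were called lower in OCI-AML3 by the test described below. The 8 CpG dinucleotides of the 200 bp ALDH3A2 sequence averaged 1.01% and 7.90%, with 2 called lower in OCI-AML3. Their highest level was 5.19% in OCI-AML3 and 34.1% in OCI-AML5.

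The libraries were of similar size, with 902802339 methylated and unmethylated calls in OCI-AML3 and 894828667 in OCI-AML5. The median nuclear CpG had 27 and 30 calls, at which depth a CpG without a methylated call may still have a level of up to 11.11% and 10%, respectively. Each nuclear CpG was compared between the lines by a two-sided Fisher's exact test on its methylated and unmethylated calls. It was called lower or higher in OCI-AML3 when the Benjamini-Hochberg adjusted p, taken over all 24454751 CpG dinucleotides tested, was under 0.05. This test compares 2 libraries and covers read sampling only, and neighbouring CpG dinucleotides often share reads. Over the genome OCI-AML3 had the lower mean, at 67.6% against 75.4%, and 3582814 CpG dinucleotides were called lower and 943668 higher.

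A gene's promoter was taken as the 2 kb before and the 2 kb after its most upstream TSS. The mean promoter level was lower in OCI-AML3 at 9 of the 10 genes, with a median difference of -4.20 percentage points. Over all protein-coding promoters the median was -4.68, and 84.7% of them had the lower mean in OCI-AML3. A difference beyond 20 percentage points was found at 2 of the 10 genes in the lower direction, against 8.61% of 19667 protein-coding promoters, and at 0 in the higher direction, against 1.79%. Of 1030 CpG dinucleotides in the 10 promoters, 215 were called lower in OCI-AML3, which is 20.9% against 12.7% over all protein-coding promoters. The calls in the other direction numbered 26, or 2.52%, against 4.82%. ALDH2 and ALDH7A1 supplied most of the lower calls. The other 8 promoters had 75 lower calls among 752 CpG dinucleotides, or 9.97%, and 25 higher calls, or 3.32%. Around the canonical TSS, defined below, the mean was lower in OCI-AML3 at 7 of the 10 genes and higher at ALDH1A1, ALDH1A3 and ALDH3B1.

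**Figure D1:**
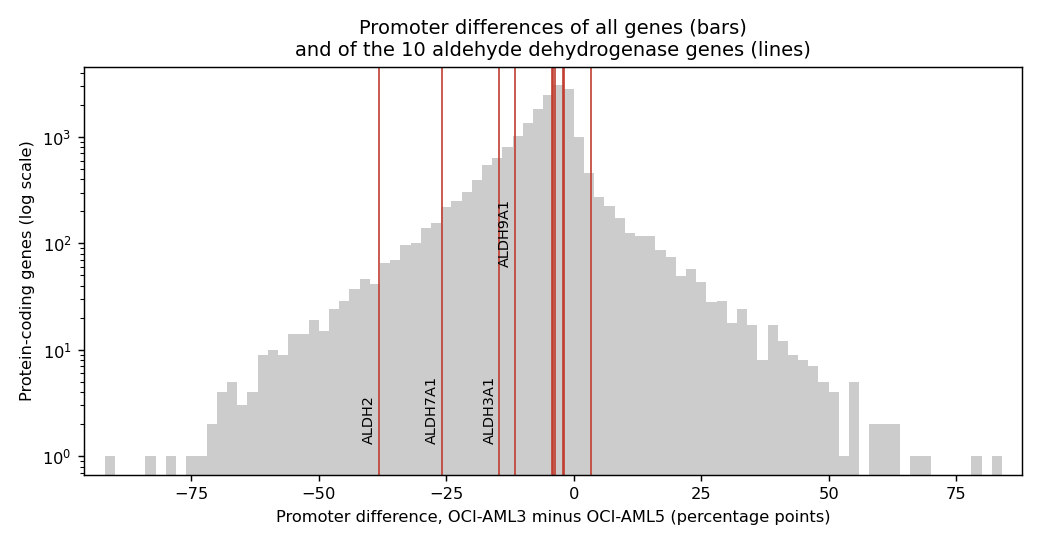
Grey bars count protein-coding genes (logarithmic vertical axis) by the promoter difference in mean methylation level, OCI-AML3 minus OCI-AML5, in bins of 2 percentage points, and red lines mark the 10 aldehyde dehydrogenase genes. ALDH2 at -38.2 and ALDH7A1 at -25.9 lie in the left tail, ALDH3A1 at -14.6 and ALDH9A1 at -11.5 on its slope, and the other lines fall between -4.27 and 3.34.

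The order of the promoters was alike in both lines. In OCI-AML3 the mean level ran from 14.3% at ALDH3A2 through ALDH9A1 (15.2%), ALDH1B1 (28.3%), ALDH1A3 (33.9%), ALDH2 (44.5%), ALDH7A1 (55.3%), ALDH3B1 (67.2%), ALDH3A1 (71.5%) and ALDH1A1 (83.3%) to 87.8% at ALDH1A2. In OCI-AML5 it ran from 16.5% at ALDH3A2 through ALDH9A1 (26.8%), ALDH1B1 (32.1%), ALDH1A3 (35.8%), ALDH3B1 (63.8%), ALDH7A1 (81.1%), ALDH2 (82.7%), ALDH3A1 (86.1%) and ALDH1A1 (87.6%) to 92.0% at ALDH1A2. The places of ALDH2 and ALDH3B1 were the ones that changed. The standard deviation over the CpG dinucleotides of a promoter was 16.2 to 43.3 percentage points, and each step between neighbours in either order was smaller than the standard deviation of both.

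**Figure D2:**
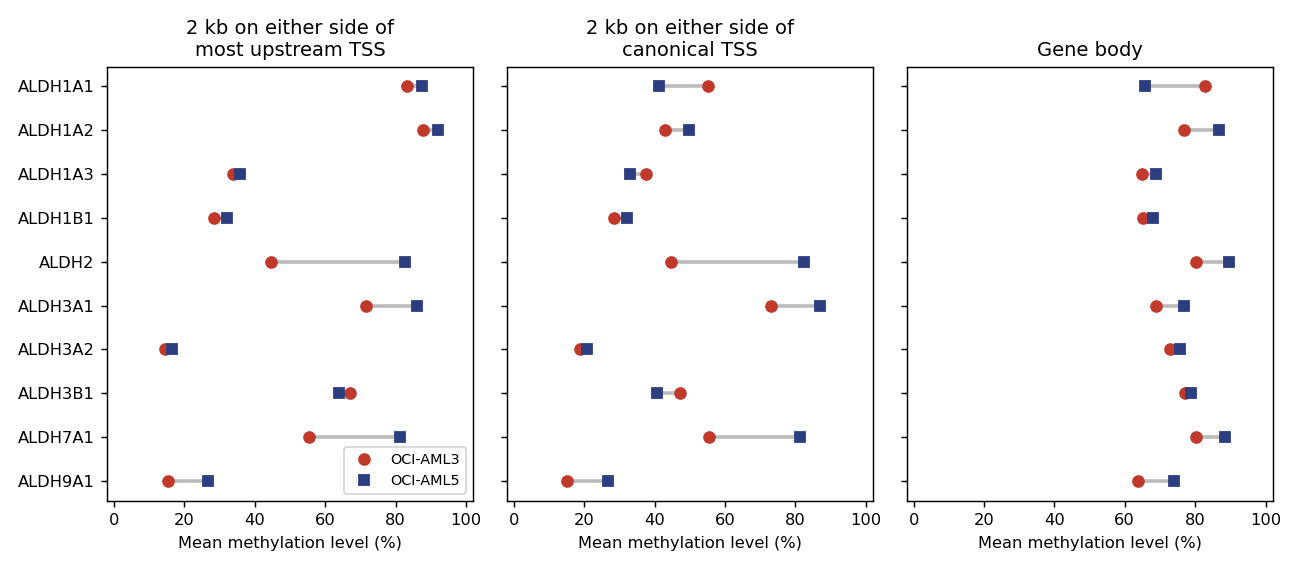
Mean methylation level (%) of the 10 genes in OCI-AML3 (red circles) and OCI-AML5 (blue squares), 1 library per line, in the window around the most upstream TSS (left), around the canonical TSS (middle) and in the gene body (right). The widest gaps are those of ALDH2 and ALDH7A1 in both promoter windows, and ALDH1A1 is the gene whose gene body has the red circle on the right of the blue square.

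ALDH2, on chromosome 12 (plus strand, 112204691 to 112255336), had the largest promoter difference. The mean over 142 CpG dinucleotides was 44.5% in OCI-AML3 and 82.7% in OCI-AML5, a difference of -38.2 percentage points, and 1.45% of protein-coding promoters had a smaller (more negative) value. As a share of all calls the level was 37.1% (95% Wilson interval 36.1 to 38.1, 9282 calls) and 83.5% (82.6 to 84.4, 6084 calls). These intervals, like all those below, cover counting error at most and treat every call as independent. Neighbouring CpG dinucleotides often share reads, so the intervals are too narrow. Lower calls numbered 79 and higher calls 1. The promoter was read more deeply in OCI-AML3, at 64.6 calls per CpG against 42.3. So were the other promoters of the 10 genes, except those of ALDH1A1 and ALDH1A2. The part of depth in the result was not tested.

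The difference was concentrated around the start. In bins of 500 bp counted from the canonical TSS, which is the start of the transcript that Ensembl selects to represent the gene, the bin ending at the TSS had 42 CpG dinucleotides at 2.14% in OCI-AML3 and 67.5% in OCI-AML5. The bin after it had 31.7% and 85.8%. The bin 500 to 1000 bp upstream was methylated in both lines, at 85.5% and 92.4%, as was the one 500 to 1000 bp downstream, at 91.2% and 96.7%. The unmethylated interval of OCI-AML3 was therefore narrow, with methylated DNA on either side of it.

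A run was defined as at least 5 consecutive covered CpG dinucleotides, no more than 300 bp apart, all called in the same direction. Runs are given by the positions of their CpG guanines. Of the 10 promoters, 4 held at least 1 run lower in OCI-AML3 and 0 a run higher, against 37.8% and 11.2% of protein-coding promoters. The longest run in any of the 10 genes by number of CpG dinucleotides was the one that ends just before the canonical TSS of ALDH2, with 43 CpG dinucleotides in 545 bp. It averaged 3.82% in OCI-AML3 and 70.1% in OCI-AML5. The next run, chr12:112204757-112204950, covered exon 1 and the beginning of intron 1 with 25 CpG dinucleotides at 3.67% and 81.8%. A further 3 runs lay in intron 1, 6944 to 8259 bp after the TSS, with means of 1.04% to 20.8% in OCI-AML3 against 38.6% to 90.3% in OCI-AML5. The last, of 5 CpG dinucleotides, was in intron 4 at 11.0% and 83.0%. A protein-coding readthrough gene, ENSG00000257767, runs across this promoter on the same strand, so a CpG here belongs to both annotations.

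**Figure D3:**
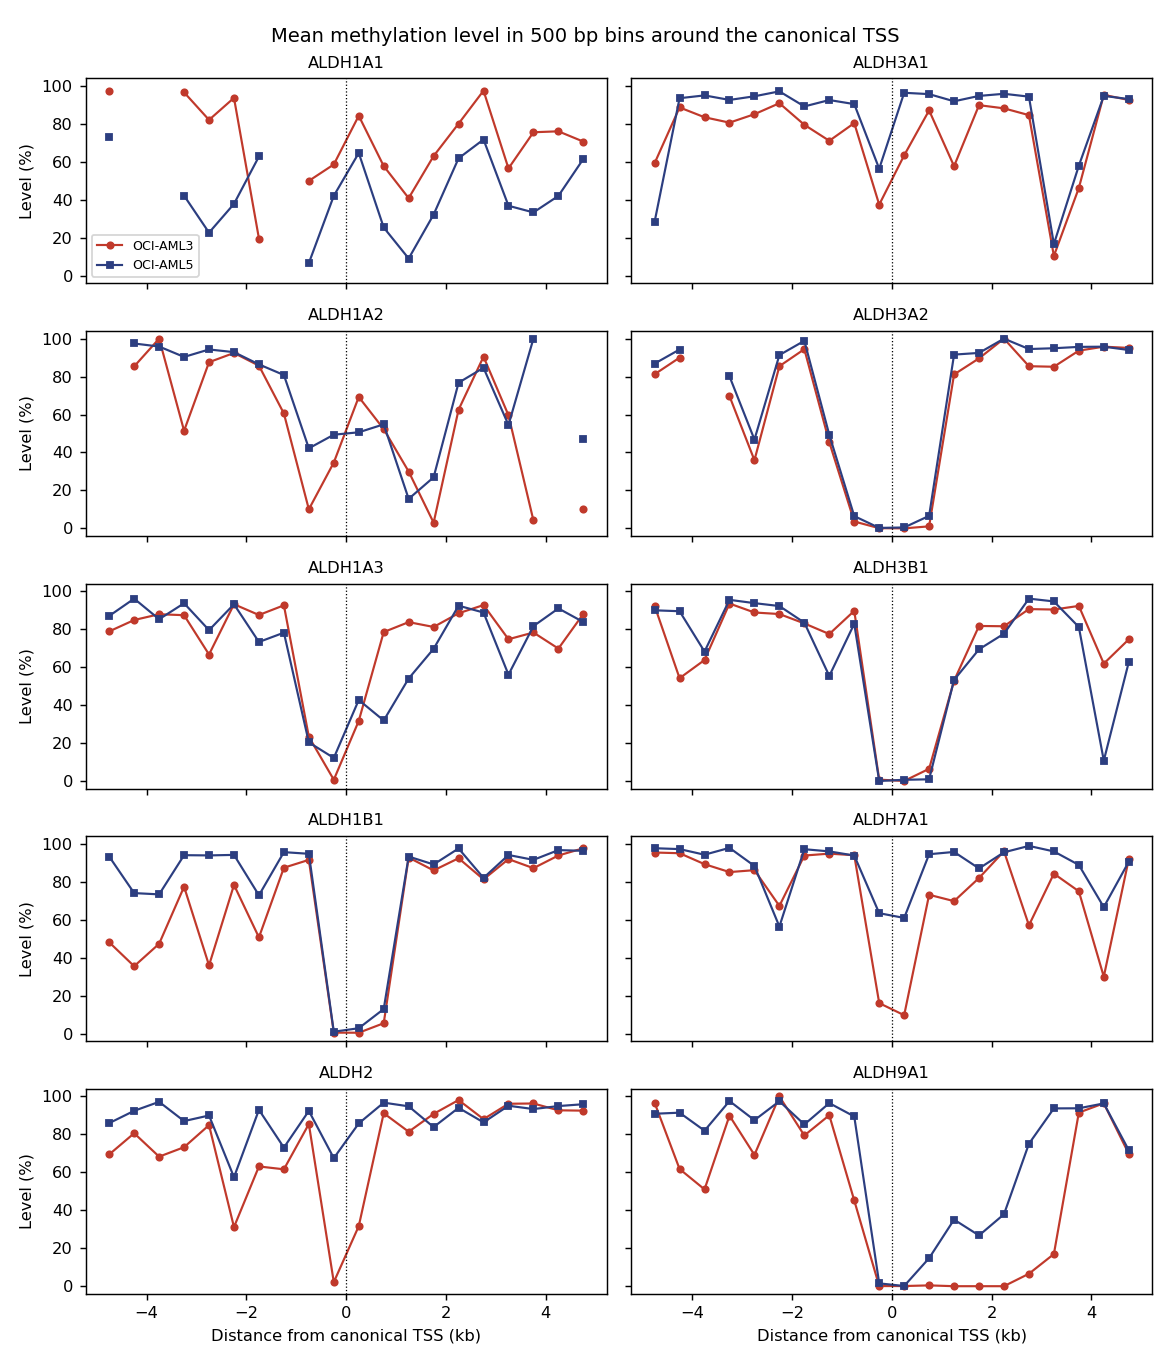
Mean methylation level (%) in bins of 500 bp from 5 kb before to 5 kb after the canonical TSS (dotted line) of each gene, in OCI-AML3 (red circles) and OCI-AML5 (blue squares); a gap marks a bin without a CpG that could be used. At ALDH2 OCI-AML3 dips to 2.14% where OCI-AML5 has 67.5%, and at ALDH7A1 it dips to 9.69% where OCI-AML5 has 61.0%, whereas at ALDH1B1, ALDH3A2, ALDH3B1 and ALDH9A1 both lines reach the bottom of the panel.

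ALDH7A1, which oxidises the semialdehyde formed in lysine breakdown, is on chromosome 5 (minus strand, 125866892 to 125931054). Its promoter averaged 55.3% in OCI-AML3 and 81.1% in OCI-AML5 over 136 CpG dinucleotides, a difference of -25.9 percentage points, with 4.74% of promoters at a smaller value. It was -11.3 over the 2 kb upstream alone and -12.6 over all annotated TSS windows joined, neither of which passes 20 points. The share of methylated calls was 55.6% (95% Wilson interval 54.3 to 56.8) and 84.4% (83.4 to 85.4). Lower calls numbered 61 and higher calls 0. The difference was largest in the bins on either side of the canonical TSS, with 16.1% against 63.5% in the 500 bp before it and 9.69% against 61.0% in the 500 bp after it. It continued downstream, with 73.2% against 94.5% from 500 to 1000 bp and 69.8% against 95.7% from 1000 to 1500 bp. From 500 to 1000 bp upstream both lines were methylated, at 94.0% and 93.8%. OCI-AML5 thus had an intermediate level at the ALDH7A1 start, below that of the DNA around it, and OCI-AML3 a low one.

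The ALDH7A1 promoter held 4 runs, all lower in OCI-AML3. The one with the most CpG dinucleotides, 18, was chr5:125930494-125930732 in exon 1 and intron 1, with means of 3.80% and 61.7%. Upstream of the transcript, 13 CpG dinucleotides at chr5:125931002-125931284 averaged 10.3% and 67.4%. This run takes in the last part of the ALDH7A1 sequence printed above. The remaining 2 runs, of 9 and 7 CpG dinucleotides, lay in exon 1 and in intron 1. The rest of the gene differed less. Around the other 4 groups of annotated starts, all further downstream, the difference between the lines was -6.58 to 1.53 percentage points.

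The 3 genes for retinoic acid synthesis did not share a pattern. ALDH1A1 lies on chromosome 9 (minus strand, 75515587 to 75695358), and its most upstream start is far from the canonical one, at 75567969. Around the most upstream TSS, 37 CpG dinucleotides averaged 83.3% in OCI-AML3 and 87.6% in OCI-AML5, with 1 called lower and 0 higher. Around the canonical TSS, 24 CpG dinucleotides averaged 55.2% and 41.4%, a difference of 13.8 percentage points in the opposite direction, with 3 called lower and 8 higher. This start is poor in CpG dinucleotides, and its reads were few, at 18.2 and 27.0 calls per CpG. The share of methylated calls was 59.7% (95% Wilson interval 55.5 to 63.8) in OCI-AML3 and 42.0% (38.5 to 45.5) in OCI-AML5.

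Across the whole of ALDH1A1 the level was higher in OCI-AML3. The gene body averaged 82.8% in OCI-AML3 and 65.7% in OCI-AML5 over 821 CpG dinucleotides, a difference of 17.1 percentage points. Among protein-coding gene bodies 99.1% had a smaller value. Higher calls numbered 213, or 25.9% of those tested, and lower calls 35, or 4.26%. In consecutive steps of 10 kb through the gene the mean was higher in OCI-AML3 in 17 of 18, with differences from -5.41 to 32.5 percentage points. The 100 kb on either side of the gene had a difference in the same direction, 83.4% against 77.6%, or 5.82 percentage points. A pair of runs, both higher in OCI-AML3, lay upstream of the canonical transcript within the gene. The longer, of 6 CpG dinucleotides, averaged 79.9% and 15.4%. Its sequence, at chr9:75612497-75612691 (GRCh37, minus strand), is shown because it carries the largest difference of any run in this direction in ALDH1A1. Capitals again mark CpG dinucleotides.
ALDH1A1: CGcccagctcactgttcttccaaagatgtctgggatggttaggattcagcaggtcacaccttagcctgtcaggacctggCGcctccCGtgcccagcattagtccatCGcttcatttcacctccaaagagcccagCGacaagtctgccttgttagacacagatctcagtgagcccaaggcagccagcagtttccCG
Each of the 6 had 56.3% or more in OCI-AML3 and 28.6% or less in OCI-AML5. A run holds only CpG dinucleotides already called in the same direction, so a gap of this kind comes with its selection.

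**Figure D4:**
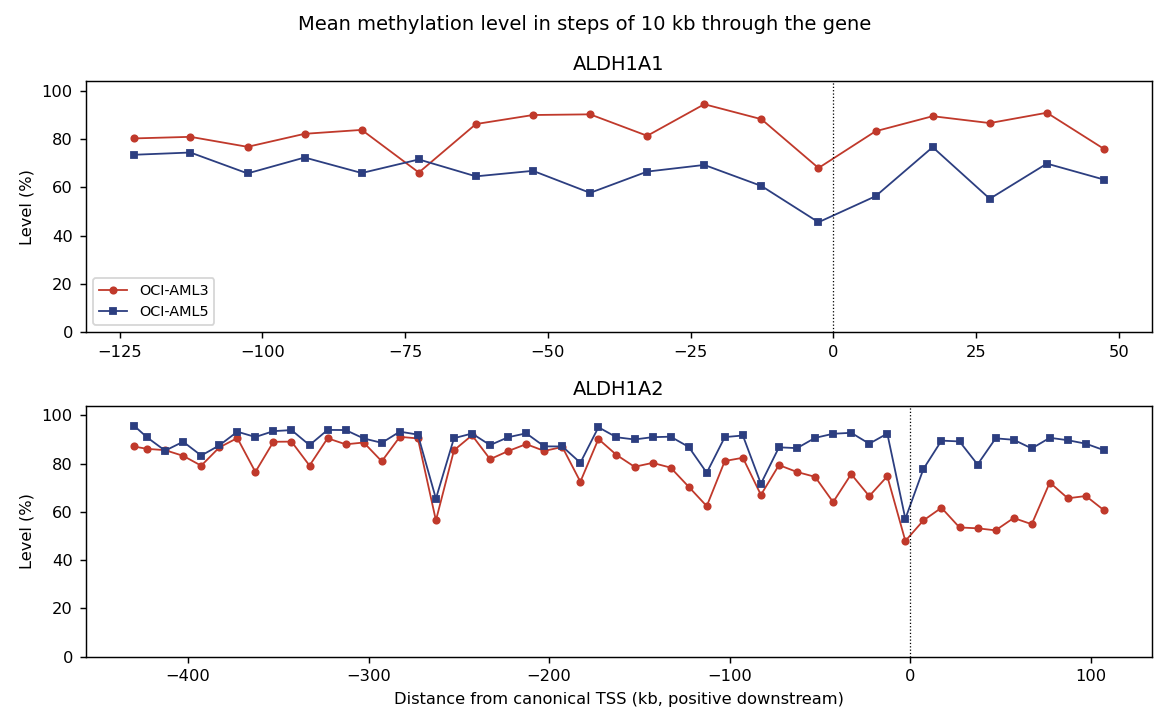
Mean methylation level (%) in consecutive steps of 10 kb through ALDH1A1 (upper panel, 18 steps) and ALDH1A2 (lower panel, 55 steps) by distance from the canonical TSS (dotted line, positive downstream), in OCI-AML3 (red circles) and OCI-AML5 (blue squares). OCI-AML3 lies above OCI-AML5 in 17 of 18 steps of ALDH1A1 and below it in 54 of 55 steps of ALDH1A2, where the gap is widest after the TSS.

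ALDH1A2, which makes retinoic acid in the embryo, has an annotated span on chromosome 15 (minus strand, 58245622 to 58790065) in which AQP9 and part of LIPC also lie. Around its most upstream TSS the lines had 87.8% and 92.0%, with 2 CpG dinucleotides called lower and 1 higher of 40. The canonical start is CpG-dense, with a ratio of observed to expected CpG dinucleotides of 0.93 in the surrounding 1 kb window. There 202 CpG dinucleotides averaged 43.0% in OCI-AML3 and 49.7% in OCI-AML5, but the small difference in means covered 60 calls in the lower and 38 in the higher direction. From 500 to 1000 bp upstream the level was 10.0% in OCI-AML3 and 42.2% in OCI-AML5. In the 500 bp downstream the order was the opposite, at 69.3% and 50.6%. The lines therefore crossed near the start.

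The runs of ALDH1A2 showed the same change of direction close to the start. Downstream of the start, 7 CpG dinucleotides in exon 1 and intron 1, at chr15:58357726-58357787, averaged 76.0% in OCI-AML3 and 21.1% in OCI-AML5. Within the 1 kb upstream there were 3 runs with the lower level in OCI-AML3. The sequences of the shortest of these, at chr15:58358632-58358669, and of the one nearest to the start, at chr15:58358177-58358227, are printed because they show how closely the called CpG dinucleotides were spaced (GRCh37, minus strand, CpG dinucleotides in capitals).
ALDH1A2, farther from the start: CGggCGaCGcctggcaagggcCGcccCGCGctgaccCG
ALDH1A2, nearer to the start: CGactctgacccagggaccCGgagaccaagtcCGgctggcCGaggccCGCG
In the first of these all 7 CpG dinucleotides had 0% in OCI-AML3 and 33.3% to 50.0% in OCI-AML5, with means of 0% and 45.6%. The depth was 27.6 and 24.1 calls per CpG. In the second the means were 11.6% and 50.8%. The antisense gene ALDH1A2-AS1 overlaps this interval on the other strand.

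The gene body of ALDH1A2 was lower in OCI-AML3, at 76.9% against 86.8% over 4074 CpG dinucleotides, and 605 were called lower and 92 higher. The difference was not even along the gene. From 2 kb downstream of the canonical TSS to the gene end it was -26.2 percentage points, with 60.9% in OCI-AML3 and 87.1% in OCI-AML5 and with 206 of 577 CpG dinucleotides called lower. From 2 kb upstream of the canonical TSS outwards, where AQP9 and LIPC are, it was -7.27, with 81.8% and 89.1%. The run with the most CpG dinucleotides lower in OCI-AML3 lay in that outer part, at chr15:58724226-58724986, inside the annotated span of LIPC, with 15 CpG dinucleotides at 15.3% and 90.2%. The longest in base pairs, 831 bp with 7 CpG dinucleotides at 25.0% and 85.8%, was in intron 12, at chr15:58250664-58251494. Around 12 of the 13 groups of annotated ALDH1A2 starts the mean was lower in OCI-AML3.

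ALDH1A3, also a retinaldehyde dehydrogenase, lies on chromosome 15 (plus strand, 101417919 to 101456831). Its start is the most CpG-rich of the 10, with a ratio of observed to expected CpG dinucleotides of 0.96. The promoter means were close, 33.9% in OCI-AML3 and 35.8% in OCI-AML5 over 160 CpG dinucleotides around the most upstream TSS. Around the canonical TSS, 284 CpG dinucleotides averaged 37.7% and 32.9%, with 49 called lower and 71 higher. Over all 10 canonical windows, 305 of 1338 CpG dinucleotides were called lower and 130 higher, or 22.8% and 9.72%. Over all protein-coding genes the shares were 12.8% and 4.88%. ALDH1A3 and ALDH1A2 supplied most of the higher calls, with 71 and 38. Most of the lower calls came from ALDH2 (79), ALDH7A1 (61), ALDH1A2 (60) and ALDH1A3 (49). In those windows 2 genes, again ALDH2 and ALDH7A1, were lower by over 20 percentage points and 0 were higher, against 8.72% and 1.81% of protein-coding genes.

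The near-equal means at ALDH1A3 hid a sharp change of direction, as at ALDH1A2. Exon 1 was lower in OCI-AML3, with 13 CpG dinucleotides at chr15:101420046-101420134 averaging 1.88% against 50.5%. In intron 1 the order was reversed, and 24 CpG dinucleotides at chr15:101420819-101421080 averaged 81.4% in OCI-AML3 and 20.2% in OCI-AML5. These runs are less than 1 kb apart. A further stretch with the higher level in OCI-AML3 was found in intron 9, where 15 CpG dinucleotides at chr15:101442609-101443044 averaged 83.0% and 27.1%. Of the 7 ALDH1A3 runs, 4 were lower and 3 higher in OCI-AML3. The smallest of the lower runs, at chr15:101419515-101419532 (GRCh37, plus strand), is printed to show the CpG density of this start, with CpG dinucleotides in capitals.
ALDH1A3: CGaCGCGgggCGgcccCG
These 5 CpG dinucleotides had means of 2.72% in OCI-AML3 and 29.7% in OCI-AML5. A long noncoding RNA, ENSG00000272639, crosses this start on the same strand and ALDH1A3-AS1 lies on the other strand further downstream.

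The promoter of ALDH1B1, whose product also oxidises acetaldehyde, lacked the large difference of ALDH2. ALDH1B1 is a mitochondrial enzyme whose gene is on chromosome 9 (plus strand, 38392699 to 38398658). Its promoter averaged 28.3% and 32.1% over 103 CpG dinucleotides, with 5 called lower and 0 higher. The 500 bp on either side of the TSS had 0.48% in OCI-AML3 and 2.01% in OCI-AML5. It was the gene without any run. Beyond the promoter the surroundings differed more, since the 100 kb on either side of ALDH1B1 had 59.1% in OCI-AML3 and 79.3% in OCI-AML5, a difference of -20.2 percentage points. For ALDH2 and ALDH7A1 the same flanks differed by -4.52 and -4.96.

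Of the genes for lipid and aromatic aldehydes, ALDH3A2 had the lowest promoter level in both lines. ALDH3A2, the fatty aldehyde dehydrogenase of the endoplasmic reticulum, lies on chromosome 17 (plus strand, 19551449 to 19589073). Its promoter averaged 14.3% and 16.5% over 132 CpG dinucleotides, with 5 called lower and 0 higher. In the 500 bp after the canonical TSS the level was 0% in OCI-AML3 and 0.47% in OCI-AML5. The run of ALDH3A2, of 5 CpG dinucleotides at 14.5% and 94.9%, lay 32745 to 32869 bp downstream of the canonical TSS in a stretch shared with SLC47A2, and its depth was low, at 11.0 and 16.0 calls per CpG.

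ALDH3A1, known as an abundant protein of the cornea, is on chromosome 17 as well (minus strand, 19641297 to 19652256). The promoter averaged 71.5% in OCI-AML3 and 86.1% in OCI-AML5, a difference of -14.6 percentage points, with 21 of 79 CpG dinucleotides called lower and 2 higher. The start is CpG-poor and was partly methylated in both lines, with 46.8% and 70.8% in the 500 bp on either side of the canonical TSS. The lowest levels lay further inside, 3000 to 3500 bp downstream, where 38 CpG dinucleotides averaged 10.4% and 16.7%. Both runs of the gene were near that dip, and the longer one, of 7 CpG dinucleotides in intron 2, averaged 3.32% and 32.3%.

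ALDH3B1, which acts on membrane lipid aldehydes, lies on chromosome 11 (plus strand, 67776048 to 67796749). It was the gene whose promoter mean was higher in OCI-AML3, at 67.2% against 63.8%, with 1 CpG called lower and 6 higher of 86. Its canonical start is CpG-poor, yet it was unmethylated in both lines, at 0.31% and 0.34% in the 500 bp on either side. The differences lay away from the start. In intron 1, 4109 to 4328 bp downstream of the canonical TSS, 10 CpG dinucleotides at chr11:67781906-67782125 averaged 68.1% in OCI-AML3 and 11.4% in OCI-AML5. In intron 7 a run of 7 went the other way, at 35.8% and 89.0%.

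ALDH9A1, an enzyme of carnitine synthesis, lies on chromosome 1 (minus strand, 165631453 to 165667799). Its promoter averaged 15.2% in OCI-AML3 and 26.8% in OCI-AML5 over 115 CpG dinucleotides, with 19 called lower and 0 higher. The start itself was unmethylated in both lines, at 0.08% and 0.62% in the 500 bp on either side. The unmethylated interval reached further in OCI-AML3. From 500 to 1000 bp downstream the level was 0.43% against 14.8%, from 2500 to 3000 bp it was 6.57% against 75.1%, and from 3000 to 3500 bp it was 16.9% against 93.7%. Upstream, 12 CpG dinucleotides at chr1:165668243-165668519 averaged 7.20% and 79.8%. The 4 runs of ALDH9A1 thus lay on both edges of the unmethylated interval, and part of the DNA there resembles the Alu repeat, in which short reads are harder to place. The effect of repeats was not tested, since no repeat annotation was used here. A transcribed pseudogene, ENSG00000215838, lies on the other strand, and its annotated span holds the upstream run.

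Gene bodies differed less than the promoters of ALDH2 and ALDH7A1. The mean was lower in OCI-AML3 in 9 of 10 genes, ALDH1A1 being the exception, with a median difference of -5.94 percentage points against -4.97 over all protein-coding genes. The other 9 ranged from -10.4 at ALDH9A1 to -1.61 at ALDH3B1. The number of gene bodies past 20 percentage points was 0 in either direction, against 6.57% of protein-coding gene bodies lower and 0.608% higher. Of 9038 CpG dinucleotides, 1178 were called lower and 444 higher, or 13.0% and 4.91%, against 12.9% and 3.26% over all protein-coding gene bodies. ALDH1A1 supplied 213 of the higher calls. ALDH1A2, whose span also holds AQP9 and part of LIPC, supplied 4074 of the CpG dinucleotides and 605 of the lower calls. Runs lower in OCI-AML3 were found in 8 gene bodies and runs higher in 4, against 57.1% and 17.7% of all protein-coding gene bodies. Over the genes and their promoters together there were 37 runs, 29 lower and 8 higher.

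CpG density at the canonical start did not sort the genes by their difference. A start was called CpG-dense when the 1 kb around it had an observed to expected CpG ratio of at least 0.6 and over 50% G and C, which held for 7 of the 10 genes and for 64.3% of protein-coding genes. The dense starts were those of ALDH1A2, ALDH1A3, ALDH1B1, ALDH2, ALDH3A2, ALDH7A1 and ALDH9A1. Of all dense starts, 71.5% had a mean under 10% in both lines over the 500 bp on either side, as did ALDH1B1, ALDH3A2 and ALDH9A1. A mean over 50% in OCI-AML5 was found at 7.70% of them, among which were ALDH2, at 16.7% in OCI-AML3 and 76.5% in OCI-AML5, and ALDH7A1, at 12.1% and 61.9%. ALDH1A2 and ALDH1A3 had intermediate levels, 50.8% and 50.0% at the former and 15.4% and 26.7% at the latter.

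The 9 other aldehyde dehydrogenase genes examined had no promoter difference of the size of ALDH2. All 9 had the lower mean in OCI-AML3, from -20.8 to -0.48 percentage points, and 1 passed 20 points, against 8.61% of protein-coding promoters. This was ALDH3B2, a paralog of ALDH3B1, at 69.6% and 90.4%. Of 902 CpG dinucleotides in these promoters, 66 were called lower and 15 higher, or 7.32% and 1.66%, against 12.7% and 4.82% over all protein-coding promoters. The alcohol dehydrogenases, which produce the aldehydes that ALDH2 oxidises, had lower promoter means in OCI-AML3 throughout. The difference was beyond 20 points at 6 of 7, against the same 8.61%: ADH1A (-43.2), ADH1B (-38.0), ADH1C (-53.3), ADH4 (-34.9), ADH6 (-45.6) and ADH7 (-41.4). Their promoters hold few CpG dinucleotides, 10 to 41 each. These genes are neighbours in 1 cluster on chromosome 4, and the 100 kb flanks differed by -32.6 to -15.3 percentage points at these 6, so the 6 values are not independent. At ALDH2 the flanks and the promoter differed by -4.52 and -38.2.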

How the data were processed

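Whole-genome bisulfite sequencing of OCI-AML3 and OCI-AML5 gave paired-end reads that the authors aligned to hg19 with Bismark and Bowtie 0.12.8, per the labels. The deposited files hold, for each CpG, the counts of methylated and unmethylated calls with both strands summed; removal of duplicate reads is not given in the sources used here, and duplicates would make the tests too lenient. The mitochondrial share of methylated calls, 0.168% in OCI-AML3 and 0.101% in OCI-AML5, showed which column held the methylated calls. The samples were grouped by line, 1 library per line, so no test of lines against cultures exists.

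Sites needed more than 5 reads in each of the libraries. Means weight each CpG equally. TSS, exons and genes came from GENCODE v44 mapped to GRCh37. Per-site Fisher tests were computed with numba 0.67.0 under Python 3.11.15, and checked against scipy 1.17.1 and on simulated counts. Regions with under 10 CpG dinucleotides were left out of the counts over all genes. All members were named, of the related genes those past 20 percentage points, and of each member the longest run in each direction; further runs were added after their values were seen. The members and lists were chosen with earlier results of these data known. Alternatives changed the read minimum, window, start, threshold and pooling of calls. The promoter sequence of ALDH2 is not reported here.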

Additional observations from a re-analysis of the deposited data

How the results depend on the processing

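ALDH2 and ALDH7A1 kept the lower promoter mean in OCI-AML3 under all 8 alternatives, with differences of -59.8 to -23.1 and -49.8 to -11.3 percentage points. The sign changed with the window or start at ALDH1A1 (-4.62 to 17.8), ALDH1A2 (-9.94 to 1.69), ALDH1A3 (-11.3 to 4.80) and ALDH3B1 (-2.71 to 6.42). Of the gene-by-setting promoter values, 40 stayed close to those reported and 40 moved, and for gene bodies 24 and 16, with no change of sign. Joining all TSS windows gave a median promoter difference of -6.27, 1 promoter lower by over 20 points (ALDH2, with ALDH7A1 lost at -12.6), 504 lower and 165 higher calls. Taking only the upstream 2 kb gave 1 promoter (ALDH2, with ALDH7A1 lost at -11.3), 79 lower and 1 higher call, and 1000 bp on either side gave 11 higher calls. The canonical window gave 130 higher calls. A core reaching 500 bp either way from that start, an alternative added after seeing the data, gave a median of -1.04 and 45 higher calls. It had 3 promoters lower by over 20 points, with ALDH3A1 added at -24.0. Pooling all calls gave medians of -7.24 for promoters and -9.00 for gene bodies. Thresholds of 10 and 30 points gave 4 promoters and 1. Gene bodies outside TSS windows held 753 lower and 280 higher calls. The cause of these shifts was not tested beyond the change of window itself. No paired analysis was possible because each line had 1 library without a replicate number, and for the same reason no replicate could be left out. Depth limits ALDH1A1 most, at 14.4 and 19.0 calls per promoter CpG.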
